A study of Homo sapiens with 2 samples.

Results

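AKAP12 and SDCBP are 2 genes whose transcripts have been described as targets of RBMS1, a paralog of the RNA-binding protein RBMS3. They were chosen for that reason, with earlier results of these data known. Their RBMS3-binding sites were taken from a list of 27706 sites mapped by CLIP-seq (cross-linking and immunoprecipitation sequencing), and every listed site on the strand of the gene and between its annotated ends was kept. There were 20 such sites, 3 in AKAP12 and 17 in SDCBP. The cells, MDA-MB-231, are a widely used human line derived from triple-negative breast cancer, and they expressed RBMS3 with a FLAG tag, so the list describes the tagged protein and not the endogenous one. The only group, FLAG-tagged RBMS3, had 2 biological replicates, and the authors pooled their tags (unique sequenced RNA fragments) before sites were called. The spread between replicates is therefore unknown for every value below, and neither a control nor an input library was analysed here. The cell line label of replicate 2 gives a different number for the line, and the title, which names MDA-MB-231, was followed.

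RBMS proteins carry RNA recognition motifs and bind short stretches rich in A and U, often in the 3′UTR of an mRNA, where bound proteins can change how long the transcript lasts. AKAP12, also called gravin or SSeCKS, is a large A-kinase anchoring protein: it holds protein kinase A and protein kinase C near the plasma membrane and is known for restraining migration and metastasis. SDCBP encodes syntenin-1, also called MDA-9, an adaptor whose PDZ domains grip the tails of syndecans and which takes part in exosome formation and in tumour cell invasion. The sites are deletions: the reverse transcriptase can skip a base at the remnant of protein left on the RNA after ultraviolet cross-linking, although deletions also have other origins.

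Each of the 3 sites in the 3′UTR of AKAP12 fell on a deleted T (U in the RNA) that begins a run of exactly 3 T. The stretches below show this shared feature and the place of the poly(A) signal, the element that directs cleavage and polyadenylation. Each has 29 nt, with 14 nt on each side of the deleted base, read 5′ to 3′ on the plus strand of hg38. Capitals mark the run of T that holds the deletion and, where there is one, the poly(A) signal AATAAA.
AKAP12 site 1, chr6:151356656-151356684: gatactggattgtgTTTgtgccatatttg
AKAP12 site 2, chr6:151356748-151356776: atttaAATAAAataTTTgcttcacttaga
AKAP12 site 3, chr6:151358493-151358521: ggggcaaattttcaTTTatctaAATAAAa
A deletion within a run cannot be placed exactly and is listed at the lowest coordinate, so the first T stands for the run. Of all 21230 sites in 3′UTRs, 26.7% fell in a run of exactly 3 T. The AKAP12 3′UTR holds 57 such runs, and 3 of them carried a site.

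AKAP12 (ENSG00000131016.17) lies on chromosome 6 from 151239967 to 151358559 (hg38, plus strand). Its representative transcript has a 3′UTR of 2848 nt, stop codon included, in 2 exons, and all 3 sites lay in the last of them, which starts at 151355727. The transcripts with a 3′UTR end at 2 places 1786 nt apart. In 3 transcripts the end is at 151356773, which gives a 3′UTR of 1062 nt, and in 1 transcript it is at 151358559.

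RBMS3 sites were present just before both annotated ends of AKAP12. Site 2, at position 151356762, was 11 nt before the proximal end, and 77 of its 1554 tags carried the deletion (4.95%, 95% Wilson interval 3.98 to 6.15%). Site 3, at position 151358507, was 52 nt before the distal end, with the deletion in 51 of 673 tags (7.58%, interval 5.81 to 9.83%). The intervals overlap, whereas the number of tags was 2.31 times as high at the proximal end. Only the long form reaches site 3, while fragments of either form can cover site 2. Wilson intervals cover counting error only, and different sites of a gene can be covered by the same tags.

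A pair of sites near ends so far apart was found in a minority of the genes counted. These were 4198 genes with a 3′UTR site and annotated ends at least 1000 nt apart, a limit chosen after the AKAP12 values were seen. Of them, 386 (9.19%) had sites within 100 nt of ends at that distance from each other. Genes with a single site were not left out, although they cannot have such a pair. Over all genes with a 3′UTR site the median was 1 cluster of sites. Site 1, at position 151356670, differed from the other sites of AKAP12. It was 103 nt before the proximal end, the fewest tags covered it, and 23 of those 64 tags carried the deletion (35.9%, interval 25.3 to 48.2%). At 92 nt downstream, site 2 had 24.3 times as many tags. Of all 3′UTR sites, 12.0% had fewer tags than site 1 and 87.4% a lower percentage. Sites with 30% or more made up 12.9% of the 3′UTR sites, and their median was 19.0 tags.

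**Figure D1:**
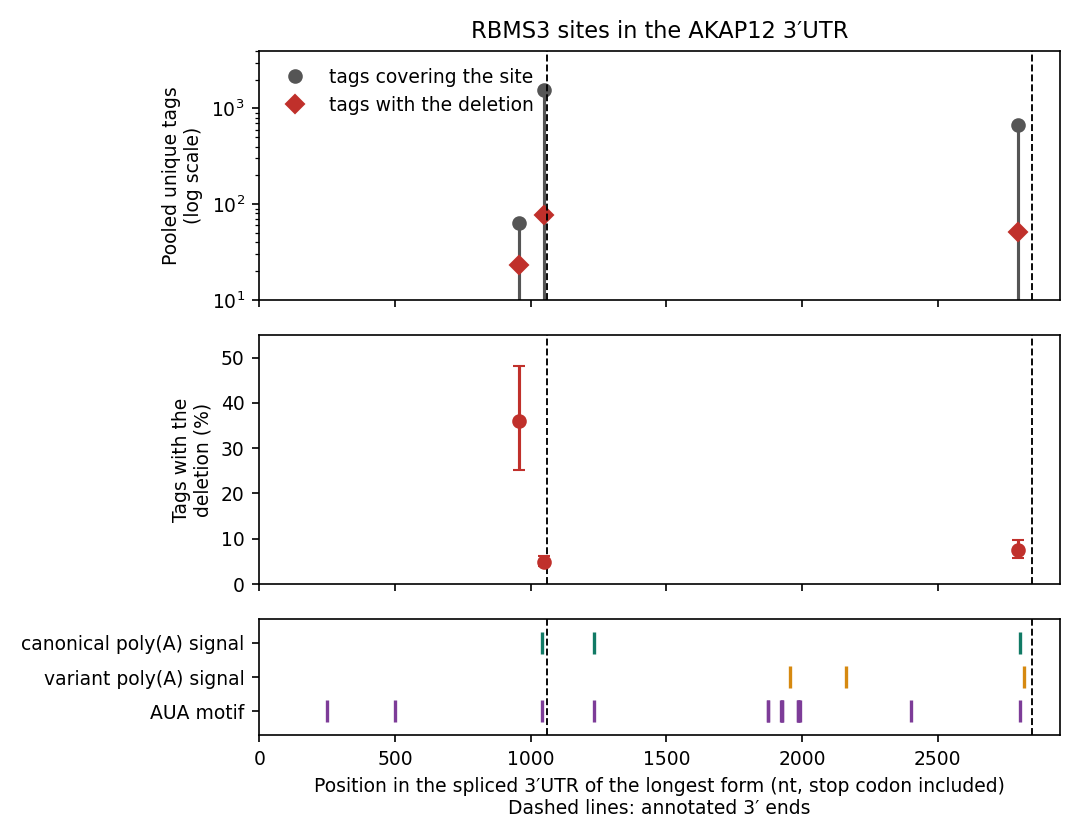
RBMS3 sites along the spliced 3′UTR of AKAP12 (x axis, nt). The upper panel gives tags covering each site and tags with the deletion (log scale), the middle panel the percentage with its 95% Wilson interval, and the lower panel the places of poly(A) signals and AUA motifs; dashed lines are annotated 3′ ends. Sites 2 and 3 sit 11 and 52 nt before an end, and the 9 AUA motifs that crowd between nt 1873 and 1991 have no site.

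The AUA motif, the 7-nt pattern that the study linked to RBMS3, was searched on the plus strand as A, G or T, then A or T, then ATA, then A or T, then A. The windows had 25 nt on each side of the deletion. Sites 2 and 3 of AKAP12 each had a match, and site 1 had none. Both matches contained the poly(A) signal AATAAA, which began 9 nt before the deletion at site 2 and 8 nt after it at site 3. For comparison, 51.7% of the windows of all 3′UTR sites held the motif, 15.5% held a match that does not contain AATAAA, and 65.4% held AATAAA or its variant ATTAAA.

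Most AUA motifs of AKAP12 lay away from its sites. The 3′UTR has 15 matches, 12 of them without AATAAA, and none of those 12 was in the window of a site. A stretch of 125 nt from 151357584 to 151357708, in the part that only the long form contains, holds 9 of the 15 matches, which partly overlap. None of the 9 contains AATAAA, and the nearest site is 799 nt away. The stretch also holds 10 of the 15 occurrences of ATATA in the last 3′UTR exon. The variant ATTAAA occurs 3 times in the 3′UTR, never wholly inside the window of a site. The last of these starts at 151358531, 28 nt before the distal end and 24 nt from site 3. Of 3 AATAAA signals in the 3′UTR, those next to the ends had a site in reach, and the signal at 151356945 did not, the nearest site being 183 nt away. Sites where under 30% of tags had the deletion are listed only from 110 tags and 32 deletions upward, and the number of tags between sites is not in the list, so the lack of a listed site there does not show a lack of binding.

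SDCBP carried many more sites than AKAP12, packed into the last part of its transcripts. Of its 17 sites, 16 lay in the 3′UTR within 75 nt of each other and formed 1 cluster (sites within 50 nt of the next). Among 6372 genes with a 3′UTR site, 100 (1.57%) had at least 16, and the median was 2 sites. The count of 16 depends on coverage: 6 of these sites had the deletion in at least 1% of their tags, and the other 10, at 0.131 to 0.259%, had 21163 tags or more. Of 16060 clusters in the whole list, those outside 3′UTRs included, 28 (0.174%) held at least 16 sites. AKAP12, by contrast, had 3 sites, as many as or fewer than 43.7% of the 6372 genes. They formed 3 separate clusters, a number that 13.8% of these genes reached. When sites within 100 nt were joined instead, AKAP12 had 2 clusters. Both genes had a site in the 3′UTR, as did 31.9% of 19958 protein-coding genes with an annotated 3′UTR.

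SDCBP (ENSG00000137575.12) lies on chromosome 8 from 58552924 to 58582859 (hg38, plus strand), with a 3′UTR of 1121 nt, stop codon included, in 1 exon. No sequence of it is printed here. Its transcripts with a 3′UTR end at 7 different places, 4 of which lie within the last 30 nt: 58582830, 58582846, 58582858 and 58582859. All 16 sites lay 2 to 52 nt before the nearest of these ends. The ends at 58581759, 58582053 and 58582056 had no site in the 100 nt before them. Over all 3′UTR sites, 69.3% were within 100 nt of an annotated end.

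Coverage along the SDCBP end rose and then fell. It was 4098 tags at the first 3′UTR site (position 58582778), 9192 at 58582806 and 24598 at 58582816, and was highest, 39720, at 58582834. It then dropped to 22941 tags at 58582847, just past the annotated end at 58582846, and was 21163 at the last site (58582853). The highest value was 9.69 times the lowest. For the gene as a whole, the number of tags depends both on how much SDCBP RNA the cells hold and on how often it was recovered with RBMS3. These cannot be told apart here. Why coverage changed along the end was not tested.

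The deletion percentages of SDCBP fell into a high and a low set. In the high set of 6 sites they ran from 1.24 to 4.09% (median 1.85%), with 4098 to 22941 tags. In the low set of 10 sites they ran from 0.131 to 0.259% (median 0.211%), with 21163 to 39720 tags. No Wilson interval of the high set overlapped one of the low set: the lowest bound in the former was 0.997% and the highest in the latter 0.317%. The split at 1% was made after the values were seen.

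The site with the most deletions in SDCBP was at 58582847, in a run of 4 T, where 486 of 22941 tags carried it (2.12%, interval 1.94 to 2.31%). It was 11 nt before the end at 58582858. Of the 6372 genes, 6.89% had a leading site with at least as many deletions, compared with 53.1% for the leading site of AKAP12. The next site was at 58582788, with the highest percentage in the 3′UTR, 206 of 5033 tags (4.09%, interval 3.58 to 4.68%), in a run of 7 T. The other sites of the high set were at 58582778, 58582796, 58582799 and 58582806, with 64, 144, 81 and 145 deletions. So 5 of these 6 sites preceded the steep rise in coverage, and the leading site lay after its fall. The 6 sites held 61.9% of the 1819 deletions counted over the 16 sites.

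The deleted base also differed between the sets. It was T at all 6 sites of the high set, 2 of them in runs of exactly 3 T. In the low set it was A at 6 sites and T at 4. Over all 3′UTR sites, T was deleted at 77.5% of those with 1% to under 30% and at 43.3% of those under 1%, where A was deleted at 36.2%. The low set began at 58582816 and included every site between there and 58582842, as well as the last one, at 58582853. Deletions of A were at 58582820, 58582824, 58582828, 58582832, 58582834 and 58582838, in 41, 61, 73, 56, 102 and 89 of the covering tags. Deletions of T were at 58582816, 58582833, 58582842 and 58582853, in 54, 76, 94 and 47 of them. It had 41 to 102 deletions per site, and 5 of its sites had fewer than 64, which is 2 times the fewest seen at any listed site under 30%. At 39720 tags, 32 deletions are 0.0806% and at 4098 tags they are 0.781%, so percentages as low as those of the low set could be listed only where coverage was high. What part this has in the difference between the sets was not tested.

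**Figure D2:**
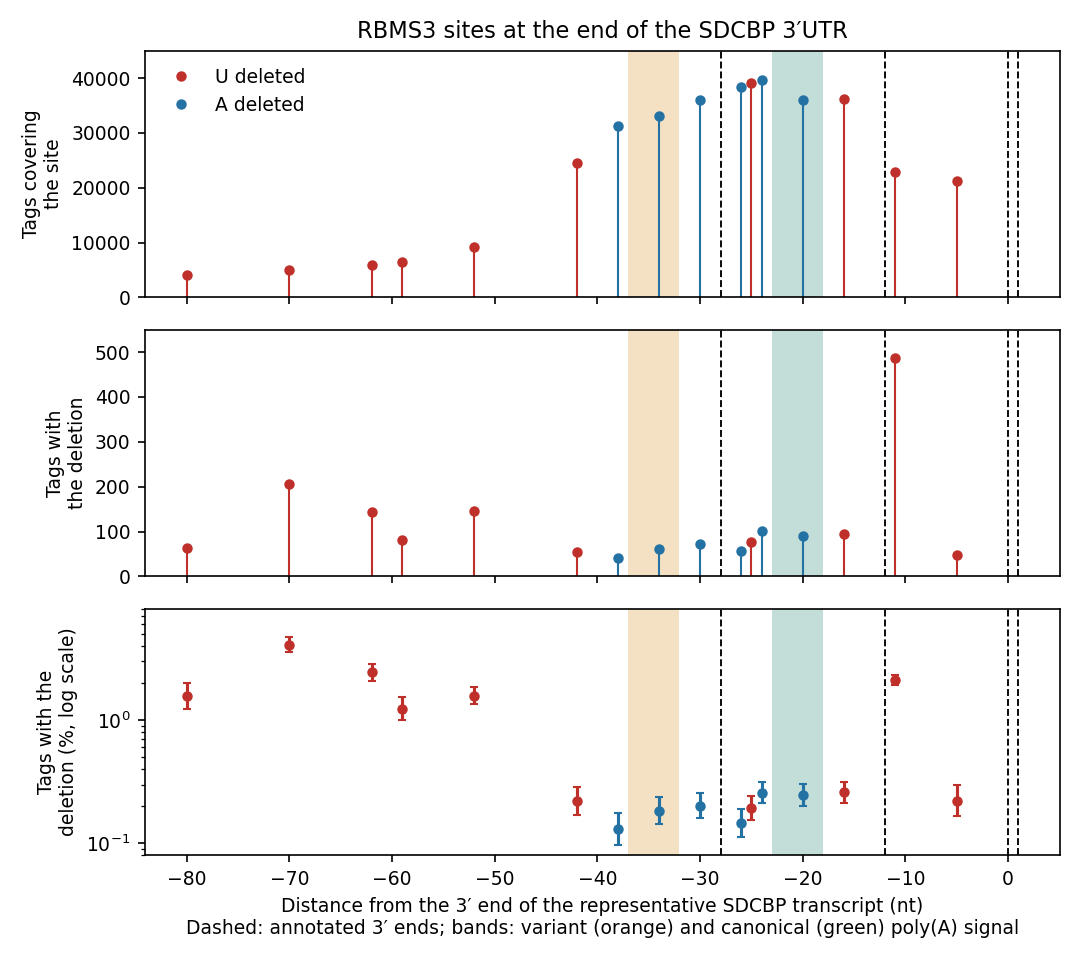
The 16 SDCBP 3′UTR sites by distance from the 3′ end of the representative transcript (x axis, nt). The panels give tags covering each site, tags with the deletion, and the percentage (log scale) with its 95% Wilson interval; colours give the deleted base, dashed lines the annotated 3′ ends and bands the variant (orange) and canonical (green) poly(A) signals. Sites of 1.24% or more lie before the steep rise in coverage or at the leading site, and those of 0.259% or less in between or at the last site.

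Poly(A) signals and AUA motifs of SDCBP lay in the middle of the cluster. The variant ATTAAA is at 58582821 to 58582826 and AATAAA at 58582835 to 58582840. Of the 16 windows, 12 held at least 1 of these signals, which 65.4% of all 3′UTR windows did. The AUA motif was in 11 windows, through the same 2 overlapping matches at 58582830 and 58582834, the former without AATAAA. Over all 3′UTR sites 51.7% of windows held the motif. The SDCBP count fell to 6 with 10 nt on each side and to 0 when ATATA was searched. The 11 windows are therefore not separate observations of the motif. All 10 sites of the low set had the motif in their window, and in the high set it was present only at the leading site. This follows from position. The other sites of the high set, at 58582778 to 58582806, lay too far upstream for their windows to hold these matches. The SDCBP 3′UTR has 1 more match, 411 nt from the nearest site.

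In both genes, then, the sites with the most deletions fell on a T within 11 nt of an annotated end and within 12 nt after the start of an AATAAA signal. A deleted T, and looser forms of the other traits, were common in the list. Over all 3′UTR sites, T was deleted at 65.5%, and 69.3% were within 100 nt of an end (median distance 34.0 nt). AATAAA was in 52.6% of their windows. How many sites meet the tighter limits of 11 and 12 nt was not counted, so these shares do not show how common those are. How many genes have a leading site with all of these traits was not counted either. The levels differed. The leading SDCBP site had 14.8 times the tags and 6.31 times the deletions of the leading AKAP12 site, and its percentage was lower (2.12% against 4.95%, Wilson intervals that do not overlap). Over all 3′UTR sites the median number of tags was 16228 where the percentage was under 1%, 3443 from 1% to under 30% and 19.0 above that, so percentages of sites with such different coverage do not compare the strength of binding.

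**Figure D3:**
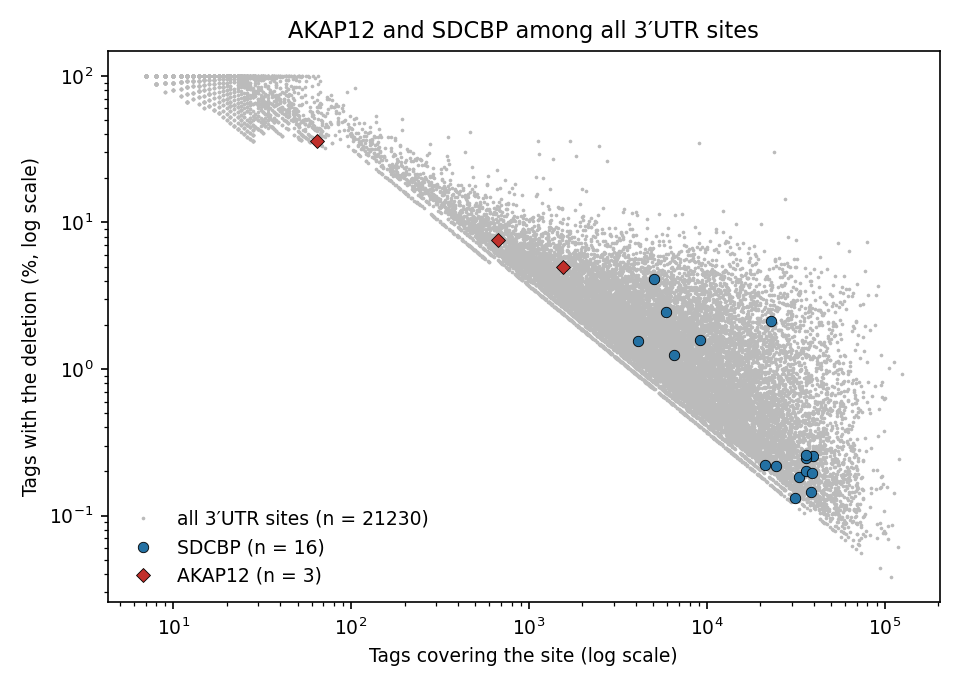
Tags covering a site (x axis, log scale) against the percentage of tags with the deletion (y axis, log scale) for all 21230 sites in 3′UTRs, in grey, with the 3 AKAP12 sites and the 16 SDCBP sites in colour. AKAP12 site 1, with 64 tags, lies in the group of few tags and high percentages, and 10 SDCBP sites lie at 21163 tags or more and 0.259% or less, near the lower edge of the list.

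The remaining SDCBP site was in an intron, at position 58556552, where all 14 tags carried a deleted G (100%, interval 78.5 to 100%). Its window held no AUA motif and no poly(A) signal. Introns held 11.3% of the whole list, and at 61.7% of intronic sites every tag had the deletion. On the opposite strand SDCBP contained 1 further site, which was not counted as its own, and AKAP12 contained none.

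Lists of genes related to AKAP12 and SDCBP by family, partnership or pathway gave the context. Of 15 other A-kinase anchoring proteins, 4 (26.7%) had a 3′UTR site, against 31.9% of protein-coding genes. The leading site of PALM2AKAP2 had 711 deletions in 28994 tags (2.45%), that of AKAP11 had 139 in 4983 (2.79%) and that of AKAP10 had 118 in 4653 (2.54%). With 77 deletions, AKAP12 came below all of these and below AKAP1, the remaining gene with a site. Of 10 subunits and inhibitors of protein kinase A, the enzyme these scaffolds hold, 4 (40.0%) had a site. They were led by the regulatory subunits PRKAR1A (392 of 11815 tags, 3.32%) and PRKAR2A (210 of 5913 tags, 3.55%), followed by the inhibitor PKIB (58 of 654 tags, 8.87%) and the catalytic subunit PRKACA.

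On the side of SDCBP, 12 of 16 syntenin partners and proteins of its exosome route (75.0%) had a 3′UTR site, against 31.9% of protein-coding genes. This list, like the others, was chosen with earlier results known, and its share was not tested. Levels of expression, which set how many tags a transcript can give, were not analysed here. SDC4, a syndecan whose tail binds syntenin-1, had 1123 deletions in 18936 tags (5.93%) at its leading site, 34 nt before an end. CD63, a tetraspanin of exosomes that also binds syntenin-1, had 532 in 18195 (2.92%), and the syndecan SDC3 had 396 in 6690 (5.92%). SDCBP itself, with 486, came between CD63 and SDC3 in deletions.

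**Figure D4:**
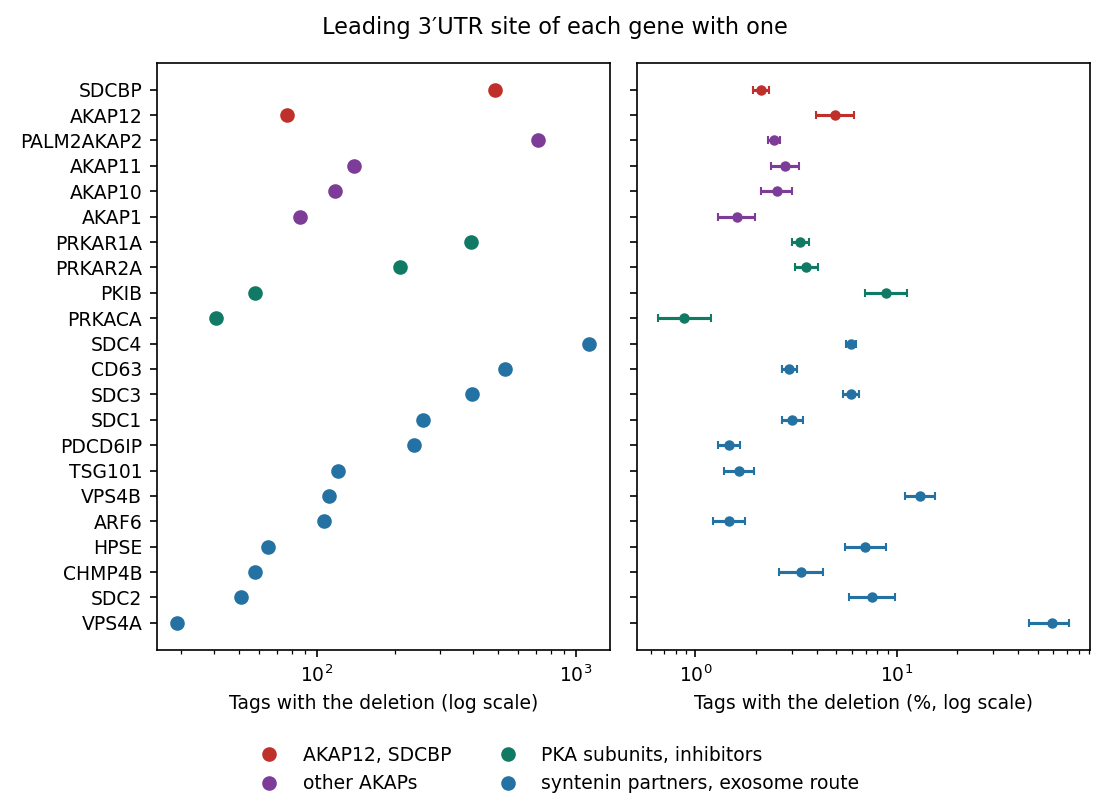
Leading 3′UTR site of AKAP12 and SDCBP and of each gene of the context lists that had one: tags with the deletion (left, log scale) and their percentage with 95% Wilson interval (right, log scale). AKAP12 has 77 deletions, below the 4 other AKAP genes shown, and SDCBP has 486, below PALM2AKAP2, SDC4 and CD63.

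Genes were also ranked by how near their leading 3′UTR site came to that of each gene in tags and deletions (distance on log10 values, among genes with the same number of 3′UTR clusters). Of 534 genes compared with AKAP12, the nearest were CDC42SE2 (69 of 1475 tags), DYNLL2 (81 of 1378 tags) and MAP4K4 (86 of 1445 tags). The CDC42SE2 site was 15 nt from an end, but those of DYNLL2 and MAP4K4 were 4326 and 1908 nt away. Of 4073 genes compared with SDCBP, the nearest were TACC1 (501 of 22560 tags), TUBA1C (454 of 21274 tags) and AP3S1 (536 of 21934 tags), at 12, 6 and 14 nt from an end. They had 9, 9 and 2 sites in the 3′UTR, against 16 in SDCBP.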

How the data were processed

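RBMS3 was mapped in MDA-MB-231 cells by FLAG immunoprecipitation after ultraviolet cross-linking. The bound RNA was trimmed with RNase, given a poly(A) tail, captured on oligo(dT) and reverse transcribed from oligo(dT) with molecular identifiers. Natural poly(A) tails can be captured as well, and the part of this in sites near transcript ends was not tested. The authors used the CLIP Tool Kit to align reads to hg38, collapse them to unique tags, pool both replicates and call deletion sites, filtered on false discovery rate (10%) and on a fold of 10 whose definition is not given in the sources used here. The deposited values are counts per site of pooled tags with the deletion and, in the site name, of tags covering it, not normalized. Depth is known only per site.

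The members, context lists and measures were chosen with earlier results of these data known. Listed intervals have 21 nt, and the central base was taken as the deletion. Sites were placed on GENCODE release 44 by strand, with 3′UTRs first, then 5′UTRs, other exons and introns. A site in overlapping 3′UTRs counted for each gene. The end of a transcript is the nearest annotated 3′ end downstream. Intervals are 95% Wilson intervals. With 1 group and pooled replicates no test was run. The text names every member site, up to 3 leading genes of each list and the 3 genes most like each member, plus AKAP1 and PRKACA, named after their values were seen. On simulated data, 300 of 300 positions, end distances and planted motifs were recovered. Alternatives covered strand, overlap, minimum deletions, tags and percentages, annotation, cluster distance, windows and motif definitions. Python 3.11.15, numpy 2.4.6, scipy 1.17.1, pysam 0.24.0 and matplotlib 3.10.9 were used.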

Additional observations from a re-analysis of the deposited data

How the results depend on the processing

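Of 50 alternatives, 37 left a count within 1.5 times its value. With deletions in at least 10% of tags, AKAP12 kept 1 site, in the 3′UTR, and SDCBP 1 site, in the intron, with 0 in its 3′UTR. With at least 1%, chosen after the data were seen, SDCBP had 6 sites in the 3′UTR. Sites of AKAP12 within 100 nt of an annotated end numbered 1 when only the representative transcript was used, since the proximal end then drops out, and 1 with a limit of 50 nt. With windows of 10 nt on each side, the AUA motif was at 1 site of AKAP12 and 6 of SDCBP, and a poly(A) signal at 1 site of AKAP12. Searched as ATATA, the motif was at 0 sites of AKAP12 and 0 of SDCBP, and matches without AATAAA were at 0 sites of AKAP12. No paired analysis was possible because the tags of both replicates were pooled in the only group. For the same reason neither replicate could be left out, and a site may rest on 1 of them. Depth limits AKAP12 site 1 (64 tags) and the intronic SDCBP site (14 tags), and hides low percentages where coverage is low.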
